A study of Drosophila melanogaster with 62 samples.

Results

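The segment polarity genes examined here are 8 Drosophila melanogaster genes, found by their FlyBase identifiers among the 17753 genes of the deposited count tables: wg, hh, en, inv, gsb, mid, ptc and Notum. RNA sequencing covered 62 libraries, 56 of total RNA from pools of 20 embryos each and 6 of nuclear RNA from 300 embryos each. At stage 5, when the blastoderm forms its cells, the main set held embryos with a knockdown (KD) of an acetyltransferase, Nejire (NejireKD, n = 3) or Gcn5 (Gcn5KD, n = 2), or of a deacetylase, HDAC1 (HDAC1KD, n = 3) or HDAC3 (HDAC3KD, n = 3), beside control embryos (n = 3). A second set, titled batch1, held EnokKD (n = 2) and HDAC6KD (n = 2) embryos with controls of its own (n = 4). Rescue embryos carried the Nejire or Gcn5 knockdown together with a wild type or a catalytic dead form of the same protein (n = 3 for each of the 4 groups). Nuclear RNA came from NejireKD and control embryos of stage 5 (n = 3 each), and 22 libraries came from stage 2, before the zygotic genome is broadly active, with the same knockdowns and both sets of controls. The library names call the nuclear controls WT and give no line codes for nuclear RNA. Those of total RNA call the controls Ctrl-KD or CtrlAc-KD. The labels identify the parents of each total RNA cross only by line codes, and the sources used here name neither the driver nor the knockdown agent. By these codes the Nejire rescues share neither parent line with NejireKD, while the Gcn5 rescues share a line number with Gcn5KD. Of the 4 batch1 controls at stage 5, replicates 2 and 3 carry another control name (CtrlAc-KD) than the other two (Ctrl-KD). Nothing in the labels says that pools of 1 group came from separate crosses, so p-values measure the spread between pools, which may be technical.

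Segment polarity genes act last in the hierarchy that divides the fly embryo into segments: gap and pair-rule factors switch them on in stripes as the blastoderm forms its cells, and cell signalling then keeps the stripes. In each segment, cells with the homeodomain factors Engrailed (en) and Invected (inv) secrete Hedgehog (hh), and their anterior neighbours secrete the Wnt ligand Wingless (wg), each signal sustaining the other. Patched (ptc) is the receptor that Hedgehog relieves of its restraint on Smoothened, Notum is a secreted carboxylesterase that inactivates Wnt ligands, gooseberry (gsb) encodes a paired-type homeodomain factor that maintains wg, and midline (mid) encodes a T-box factor. Nejire is the fly CBP, a histone acetyltransferase and coactivator, and Gcn5 is the acetyltransferase of the SAGA complex.

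On build dm6, with Ensembl gene models, wg (FBgn0284084) lies at 2L:7307159-7316265 and mid (FBgn0261963) at 2L:5461639-5467610, both on the plus strand. The gene en (FBgn0000577) lies at 2R:11524006-11528210 on the minus strand, and its paralogue inv (FBgn0001269) lies 14311 bases away at 2R:11474465-11509695 on the plus strand, in the opposite orientation. The plus strand of 2R also carries gsb (FBgn0001148) at 2R:25061964-25064643 and ptc (FBgn0003892) at 2R:8649649-8665223. The locus of hh (FBgn0004644) is 3R:23128169-23141906 on the minus strand, and that of Notum (FBgn0044028) is 3L:16023480-16032752 on the plus strand. Exons of 7 of the 8 genes overlap no other annotated gene, and those of Notum share a fraction of 0.027 of their bases with a microRNA gene.

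Total RNA libraries held 2.45 M to 40.4 M counts (M, 1000000) and nuclear libraries 14.8 M to 20.7 M counts. Levels of total RNA are CPM (counts scaled to a library total of 1000000), with TMM scale factors from the 56 libraries, and a gene is said to have risen or fallen only where the adjusted p of edgeR's quasi-likelihood test (Benjamini-Hochberg over all genes tested) was under 0.05. The targeted genes fell under their own knockdown at stage 5 in the main set: nej averaged 264 CPM in NejireKD and 1026 in control, Gcn5 33.0 in Gcn5KD and 236 in control, and HDAC1 146 in HDAC1KD and 657 in control. In batch1 enok averaged 93.1 CPM in EnokKD and 433 in control, and HDAC6 28.5 in HDAC6KD and 79.8 in control. Transcripts of nej were lower also in Gcn5KD (367 CPM) and HDAC1KD (435 CPM) embryos. Falls were not confined to the gene targeted: of 5 tested target genes, 5 fell in HDAC1KD and 4 in Gcn5KD. Over all genes tested 28.5% fell in HDAC1KD and 24.3% in Gcn5KD. The HDAC3 row was at 0 counts in every library, so that knockdown could not be checked, and in nuclear RNA the fall of nej had an edgeR adjusted p of 0.0637. Of 9 listed blastoderm markers 8 had counts in stage 5 controls (Sry-alpha was at 0), and follicle cell markers summed to at most 2.95 CPM in total RNA (their nuclear levels stand with the nuclear results). The second HDAC6KD library of stage 5 is placed there by its title, while its tissue field says stage 2.

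All 8 genes were off, or nearly so, at stage 2. Over the 22 stage 2 libraries together, hh, mid and Notum had 0 counts, which allows at most 0.0122 CPM at 3 counts over all of them (counting error only), wg and gsb had 1 count each, en had 4 and inv had 6. The receptor gene ptc had 83 counts in 9 libraries, and 68 of these lay in the 3 HDAC3KD libraries, with 19, 12 and 37 counts, against 5 counts in the 3 stage 2 controls of the main set. None of the 8 genes passed the filter on low counts in any stage 2 comparison, in which 10.1% of all genes tested were called in NejireKD, 36.9% in Gcn5KD, 15.9% in HDAC1KD, 17.6% in HDAC3KD, 5.34% in EnokKD and 3.16% in HDAC6KD embryos. Without the filter, ptc was the 1 of the 8 genes to rise in HDAC3KD embryos over stage 2 controls.

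By stage 5 all 8 genes had risen in the controls of both sets, beside 42.5% of all genes tested that rose and 37.3% that fell in the main set (79.8% in all), and 48.9% and 38.3% in batch1 (87.2% in all). None had more than 5 counts in a stage 2 control group, so the 8 genes entered these tests only through stage 5 libraries. A rise was the only call open to them, and their count cannot be weighed against the shares of all genes. Against a floor of 3 counts over the stage 2 group, wg was at least 621-fold higher at stage 5 than at stage 2 in the main set and at least 770-fold higher in batch1, Notum at least 1626-fold and 523-fold, mid at least 101-fold and 214-fold, hh at least 76.8-fold and 160-fold, and gsb at least 51.98-fold and 159-fold. For ptc the stage 5 controls held 4202 counts in the main set and 19605 in batch1, against 5 and 4 counts in the stage 2 controls.

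Per kilobase of exon, the stage 5 main controls ranked ptc highest, at 44.98 ± 7.4 CPM per kb (SD, n = 3), followed by Notum at 28.1 ± 1.7 and wg at 13.9 ± 1.7. The other 5 genes were far lower, with mid at 2.26 ± 0.57, hh at 2.12 ± 0.99, gsb at 2.06 ± 1.13, en at 1.38 ± 1.09 and inv at 0.416 ± 0.093 CPM per kb. Among mid, hh, gsb and en the order was within the spread between libraries. In nuclear RNA of control embryos, scaled to the ERCC spike-in, ptc again led at 374 ± 45 CPM per kb and inv was again lowest at 0.766 ± 0.180.

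The 2 sets of control embryos did not hold the same levels of these genes, which bears on every comparison made with them. In the 4 batch1 controls wg had 106, 101, 82.4 and 98.1 CPM, against 37.7, 38.0 and 46.3 CPM in the 3 main controls. For gsb the batch1 controls had 18.7, 17.6, 19.1 and 24.8 CPM and the main controls 1.35, 3.84 and 5.01 CPM. The sets did not overlap for either gene. Between batch1 and main controls, 6 of the 8 genes were higher and 1 was lower, beside 22.9% of all genes higher and 24% lower (46.9% in all): the log2 difference was 2.63 ± 0.32 (SE) for gsb, 2.31 ± 0.39 for en, 2.11 ± 0.28 for hh, 2.06 ± 0.25 for mid, 1.25 ± 0.14 for wg and 1.09 ± 0.21 for ptc, with adjusted p between 3.4e-05 and 0.0011 in edgeR. Notum ran the other way, with 59.8, 71.9, 72.3 and 58.9 CPM in batch1 controls and 108, 112 and 99.5 CPM in main controls (log2 difference -0.71 ± 0.12, edgeR adjusted p = 4.9e-04). The difference for inv was -0.20 (95% interval -0.92 to 0.51).

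Transcripts known to be transient at cellularization differed between the sets at the same time. The actin regulator nullo averaged 1.47 ± 0.99 CPM (SD, n = 4) in batch1 controls and 52.8 ± 7.8 CPM (n = 3) in main controls, and bnk averaged 40.9 ± 23.5 CPM in batch1 controls and 194 ± 34 CPM in main controls. Over 7 listed transcripts of this kind, 6 of which had counts, the summed level ran between 3005 and 5744 CPM in batch1 controls and between 5859 and 8569 CPM in main controls. Summed maternal transcripts that the embryo clears (7 of 7 with counts) ran between 459 and 517 CPM in batch1 controls and between 800 and 1401 CPM in main controls. A list of 8 genes of later embryos summed to 386 to 524 CPM in batch1 controls and to 188 to 231 CPM in main controls. The labels give only the stage, and the part of embryo age in these differences was not tested.

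**Figure D1:**
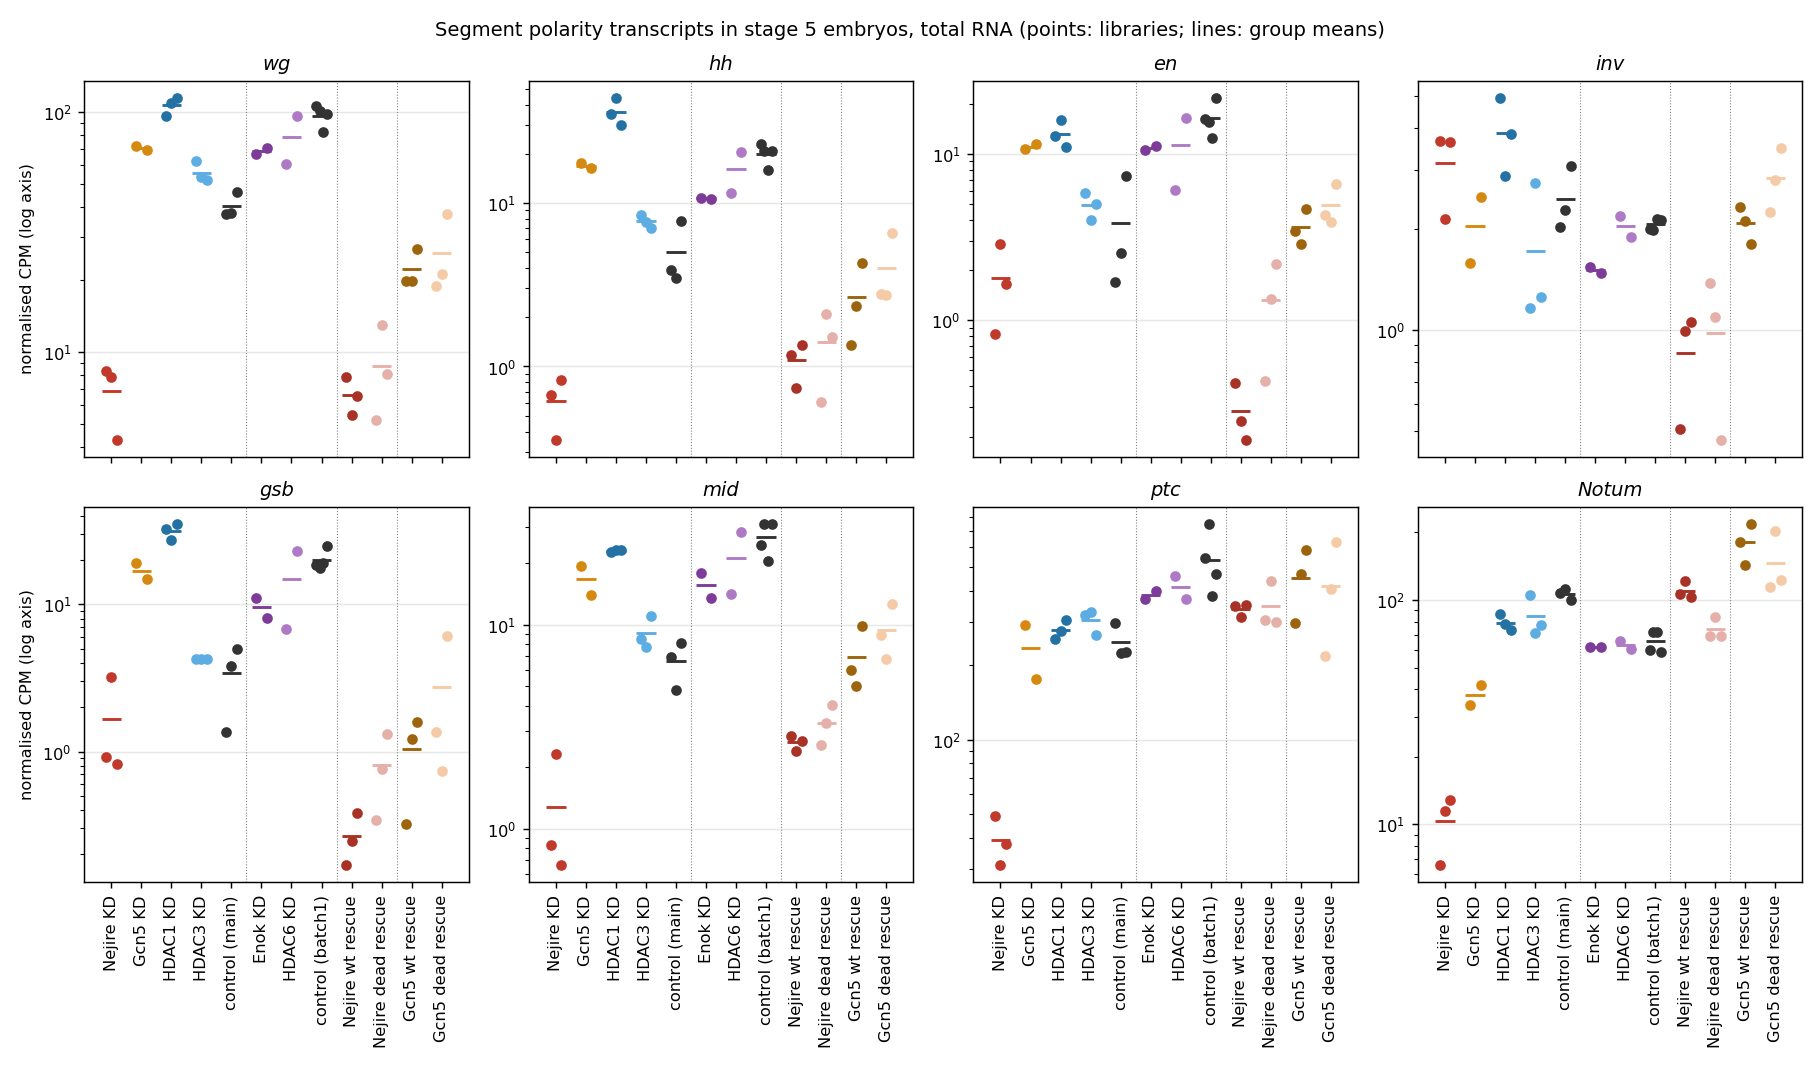
Normalised level of the 8 genes in each stage 5 library of total RNA (CPM, log axis; points are libraries, lines group means; dotted lines separate the main set, batch1, the Nejire rescues and the Gcn5 rescues). In NejireKD libraries wg, hh, mid, ptc and Notum lie below all main controls, while for wg, hh, en, gsb and mid every HDAC1KD, Gcn5KD and batch1 control library lies above every main control.

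**Figure D2:**
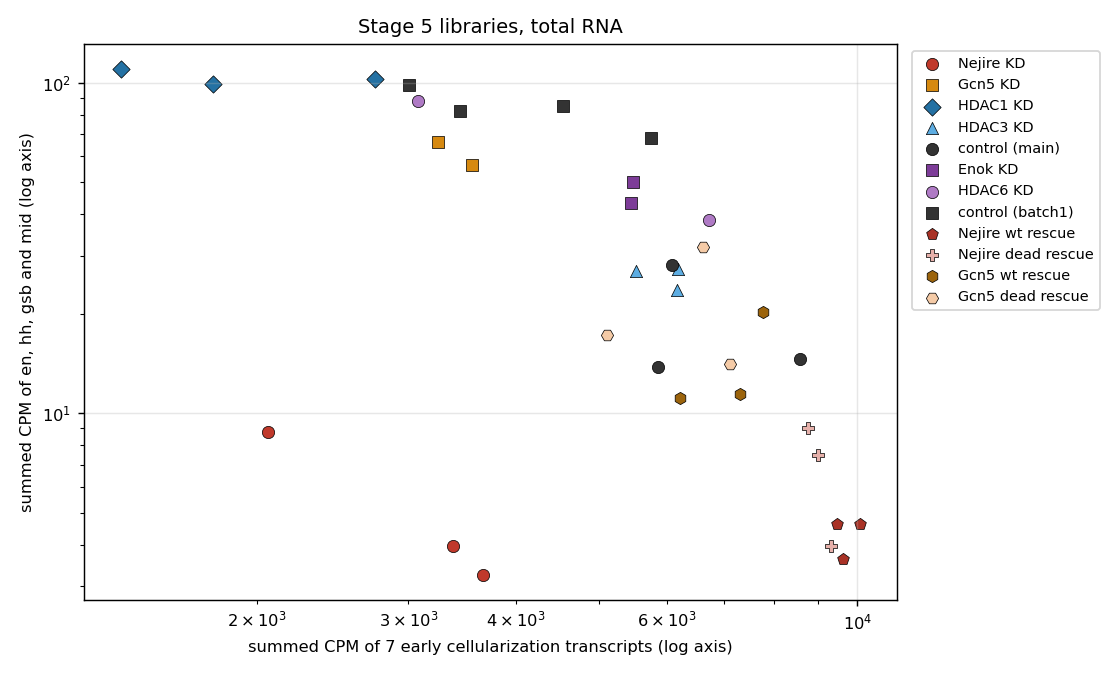
Summed level of 7 transcripts transient at cellularization (horizontal, CPM, log axis) against the summed level of en, hh, gsb and mid (vertical, CPM, log axis), 1 point per stage 5 library of total RNA. The 4 batch1 control libraries lie at 67.9 to 98.3 CPM on the vertical axis, above the 3 main controls at 13.8 to 28.1, and the 3 NejireKD libraries lie apart, at 3.2 to 8.8 CPM with 2058 to 3663 CPM on the horizontal axis.

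In NejireKD embryos 5 of the 8 genes fell at stage 5 and none rose, beside 21.9% of all genes tested that fell and 16.1% that rose (37.9% in all). The genes that fell comprised both signals, wg and hh, both antagonists, ptc and Notum, and the T-box gene mid. Their falls ran between 5.32-fold and 10.7-fold, and the median log2 change of the 8 genes was -2.46, beside 0.01 over all genes. In bulk RNA, fewer cells with a transcript and less transcript per cell cannot be told apart.

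The ligand gene wg had 8.32, 7.87 and 4.30 CPM in NejireKD embryos, against 37.7, 38.0 and 46.3 CPM in control embryos, 5.71-fold lower (log2 -2.51 ± 0.18, edgeR adjusted p = 5.8e-09). The second ligand gene, hh, had 0.665, 0.358 and 0.827 CPM in NejireKD, against 3.88, 3.48 and 7.71 CPM in control (log2 -2.80 ± 0.38, edgeR adjusted p = 1.6e-05). No NejireKD library reached the lowest control for either ligand. The receptor gene ptc had 49.2, 30.9 and 37.9 CPM in NejireKD, against 295, 224 and 226 CPM in control (log2 -2.64 ± 0.20, edgeR adjusted p = 6.9e-09). Notum showed the largest fall of the 8 genes, with 6.57, 11.4 and 12.9 CPM in NejireKD and 108, 112 and 99.5 CPM in control (log2 -3.42 ± 0.21, edgeR adjusted p = 5.1e-10). Among the nuclear factors, mid had 0.832, 2.32 and 0.661 CPM in NejireKD and 6.92, 4.80 and 8.10 CPM in control (log2 -2.41 ± 0.37, edgeR adjusted p = 5.0e-05). All of these 5 genes separated the 2 groups without overlap, and each of them fell also when the batch1 controls took the place of the main ones, with log2 changes between -4.93 for hh and -2.74 for Notum, in a fit that called 3107 genes lower and 2920 higher of 8330.

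The homeodomain genes behaved less uniformly. Transcripts of en stood at 0.832, 2.86 and 1.65 CPM in NejireKD and at 1.69, 2.52 and 7.33 CPM in control, and the log2 change of -0.98 (95% interval -2.01 to 0.04) did not pass (edgeR adjusted p = 0.123). For gsb the values were 0.915, 3.22 and 0.827 CPM in NejireKD and 1.35, 3.84 and 5.01 CPM in control, a log2 change of -1.07 (95% interval -2.05 to -0.10, edgeR adjusted p = 0.0771). Both genes overlapped between the groups. With no filter on low counts (edgeR adjusted p = 0.0189) and in DESeq2 (adjusted p = 0.0355) gsb was called lower, which made 6 of the 8 genes. Without NejireKD library 2 the log2 change was -1.47 for en and -1.82 for gsb, and without control library 1 it was -1.32 and -1.47, in each case with an edgeR adjusted p under 0.05. Against the batch1 controls en was lower by a log2 change of -3.32 and gsb by -3.72, and both fell. The log2 change of inv was 0.44 (95% interval -0.41 to 1.29, edgeR adjusted p = 0.411), with 3.66, 2.15 and 3.64 CPM in NejireKD and 2.03, 2.28 and 3.08 CPM in control.

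Markers of stage moved in part with these falls. The 6 detected early transcripts summed to between 2058 and 3663 CPM in NejireKD and between 5859 and 8569 CPM in control. Of the 6 tested 4 fell and 0 rose, with a median log2 change of -1.47, beside 21.9% of all genes tested that fell. Single members differed: nullo averaged 47.0 ± 3.5 CPM in NejireKD and 52.8 ± 7.8 CPM in control, and bnk 158 ± 39 CPM in NejireKD and 194 ± 34 CPM in control (SD, n = 3 each). Cleared maternal transcripts summed to between 1096 and 1319 CPM in NejireKD, inside the control range of 800 to 1401 CPM. The single control libraries had 1401, 829 and 800 CPM. Of these 7 transcripts 3 rose and 0 fell, with a median log2 change of 0.31, beside 16.1% of all genes tested that rose. The 9 blastoderm markers, which include the early transcripts in part, summed to between 1929 and 3356 CPM in NejireKD and between 5021 and 7183 CPM in control, and 6 of 8 tested fell. The 8 listed genes of later embryos (among them elav, pros and Mef2) summed to between 48.6 and 62.2 CPM in NejireKD and between 188 and 231 CPM in control, and 4 of 5 tested fell, with a median log2 change of -2.09 over the 5. The part of stage in the falls of wg, hh, mid, ptc and Notum was not tested.

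In nuclear RNA, whose libraries were scaled to the ERCC spike-in, 7 of the 8 genes fell in NejireKD and inv did not pass, beside 9.91% of all genes tested that fell and 3.52% that rose (13.4% in all). The largest falls were those of Notum (log2 -5.94 ± 0.97, 61.3-fold lower) and mid (-5.86 ± 0.95, 58.04-fold lower), followed by wg (-5.51 ± 0.94), en (-5.50 ± 0.94), gsb (-4.91 ± 0.93), ptc (-4.69 ± 1.03) and hh (-3.26 ± 0.83), with edgeR adjusted p between 2.2e-07 and 0.0015. The genes en and gsb, whose changes missed the threshold in total RNA as given above, were among those that fell in nuclei. Whether the nuclear and total changes differ was not tested, since embryos, controls and scaling are not shared.

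Nuclear wg stood at 1.13, 1.44 and 7.30 CPM in NejireKD nuclei, against 162, 137 and 137 CPM in control nuclei. Nuclear en stood at 0.397, 0.478 and 2.25 CPM in NejireKD nuclei, against 41.8, 45.5 and 44.1 CPM in control nuclei. The third NejireKD library was the highest of its group for both, as for the other 6 genes, and still lay far below every control for 7 of the 8. Nuclear ptc had 14.5, 41.6 and 183 CPM in NejireKD and 2217, 2196 and 1774 CPM in control. Nuclear Notum had 0.794, 1.36 and 5.95 CPM in NejireKD and 150, 210 and 121 CPM in control. For inv the groups overlapped, with 0.965, 2.06 and 6.51 CPM in NejireKD and 4.33, 5.68 and 3.58 CPM in control.

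The third NejireKD nuclear library had 69.5 ERCC counts per 1000000 fly counts, beside 282 and 284 in the other two, and 98.5, 100.0 and 134 in the control libraries. Without it the 7 genes fell by larger log2 changes, between -7.70 for mid and -4.95 for hh, and inv fell too (log2 -1.59, edgeR adjusted p = 0.0014), but 6660 of all 9395 genes tested fell in that fit, with a median log2 change of -1.27. With TMM scaling on the fly genes, which sets the typical gene near 0 (a shift of 0.29 in the median log2 change), the 7 genes fell by between -5.89 for mid and -3.31 for hh, and inv stood at -0.30 (edgeR adjusted p = 0.459), beside 2857 of 9295 genes that fell and 2769 that rose. The 6 detected early transcripts summed to 915 to 5483 ERCC-scaled CPM in NejireKD nuclei and to 6049 to 10749 in control nuclei, and cleared maternal transcripts to 1011 to 4533 in NejireKD nuclei and to 962 to 1748 in control nuclei. Genes of later embryos summed to 32.9 to 218 in NejireKD nuclei and to 790 to 930 in control nuclei. The 5 follicle cell markers, all detected, summed to 1.93 to 11.7 in NejireKD nuclei and to 14.1 to 31.6 in control nuclei, and of the 3 tested dec-1 and Cp36 fell and psd rose. The part of stage or of other cells in the nuclear falls was not tested.

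**Figure D3:**
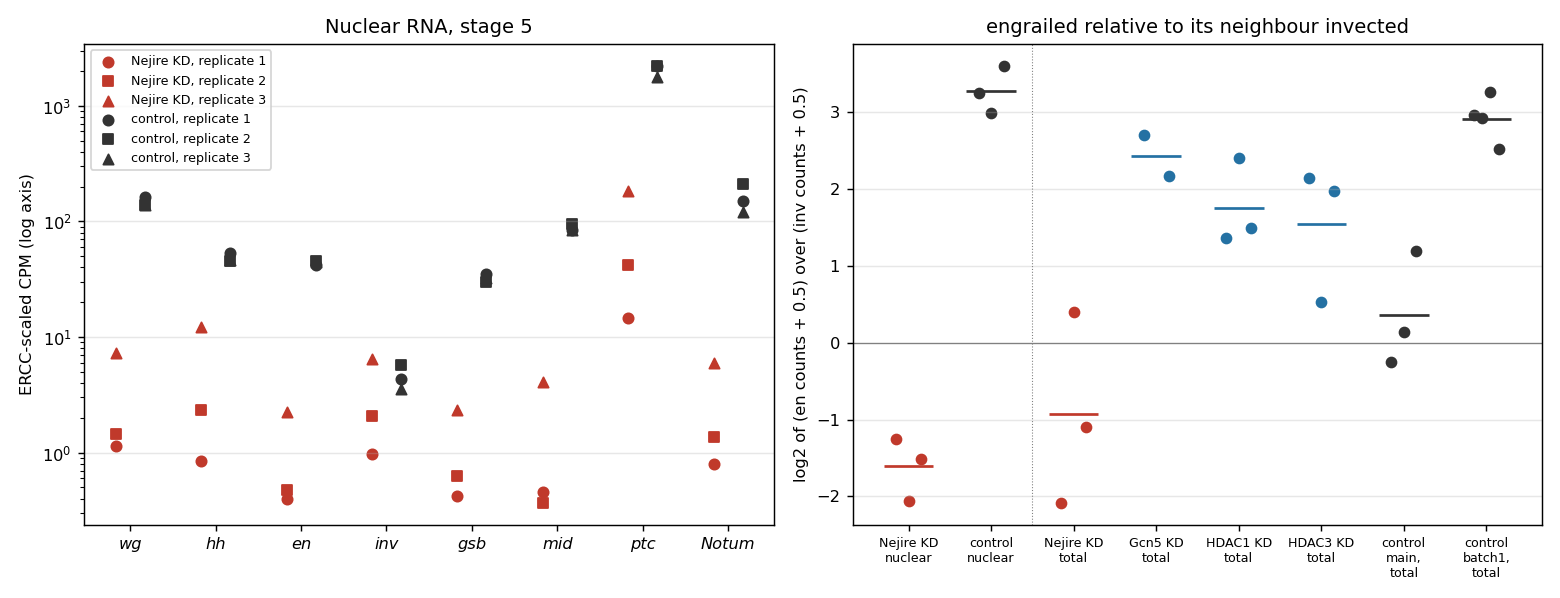
Left, ERCC-scaled level of the 8 genes in each nuclear RNA library (CPM, log axis; NejireKD left of control, symbols mark replicates). Right, log2 ratio of en to inv counts, 0.5 added to each, per stage 5 library (points) with group means (lines); the ratio lies between -2.07 and -1.25 in NejireKD nuclei and between 2.99 and 3.61 in control nuclei.

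The neighbours en and inv share a locus and much of their regulation in textbook accounts, and within 1 library their ratio needs no scaling between libraries. This ratio was chosen after the values of both genes had been seen. In nuclei the log2 ratio of en to inv counts was -1.25, -2.07 and -1.51 in NejireKD and 3.26, 2.99 and 3.61 in control, a difference of -4.89 that left no overlap. The exact two-sided permutation test gave p = 0.1, the smallest that 3 against 3 libraries allow. In total RNA the ratio was -2.08, 0.40 and -1.10 in NejireKD and -0.25, 0.14 and 1.20 in control, which overlapped (exact permutation p = 0.3). In the batch1 controls the ratio was 2.96, 2.92, 2.53 and 3.26, above every main control. In other knockdowns, tested against the main controls, it was 2.70 and 2.17 in Gcn5KD (exact permutation p = 0.2), 1.37, 2.41 and 1.49 in HDAC1KD (exact permutation p = 0.1) and 2.15, 0.53 and 1.97 in HDAC3KD (exact permutation p = 0.2). Neither Gcn5KD nor HDAC1KD overlapped the main controls. With 1 in place of 0.5 added to each count the exact permutation p of Gcn5KD was 0.1, the smallest possible there. A ratio shows unequal change, not which of the genes changed.

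Knockdown of Gcn5 or of HDAC1 went with higher levels of wg, hh, en, gsb and mid when each was set against the main controls. In Gcn5KD embryos 5 of the 8 genes rose (wg, hh, en, gsb and mid) and 1 fell (Notum), beside 27.4% of all genes that rose and 24.3% that fell (51.7% in all). In HDAC1KD embryos the same 5 symbols were called higher and Notum lower, beside 27.5% of all genes that rose and 28.5% that fell (56% in all). The 2 comparisons share their control libraries, so their likeness is in part built in.

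The paired-type factor gene gsb had 19.1 and 14.9 CPM in Gcn5KD embryos and 32.5, 27.2 and 35.2 CPM in HDAC1KD embryos, against 1.35, 3.84 and 5.01 CPM in control. Its log2 change was 2.47 ± 0.38 in Gcn5KD (edgeR adjusted p = 4.6e-05) and 3.30 ± 0.35 in HDAC1KD (edgeR adjusted p = 5.5e-07), the largest rise of the 8 genes in both. The ligand gene hh had 17.5 and 16.3 CPM in Gcn5KD and 34.9, 43.8 and 30.1 CPM in HDAC1KD, against 3.88, 3.48 and 7.71 CPM in control. Every library of either knockdown exceeded every control for gsb and for hh. The log2 change of hh was 1.96 ± 0.27 in Gcn5KD and 2.98 ± 0.25 in HDAC1KD, that of en 1.83 ± 0.43 and 2.00 ± 0.40, that of mid 1.46 ± 0.29 and 1.84 ± 0.27, and that of wg 0.88 ± 0.17 and 1.39 ± 0.16. These 8 values had edgeR adjusted p between 4.7e-08 and 0.0019.

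Notum moved the other way in Gcn5KD embryos, with 34.0 and 41.6 CPM, against 108, 112 and 99.5 CPM in control (log2 -1.43 ± 0.21, edgeR adjusted p = 3.0e-05). In HDAC1KD embryos it had 86.4, 77.8 and 73.3 CPM (log2 -0.44 ± 0.18, edgeR adjusted p = 0.0425), a call lost without control library 1 or 2 or without any 1 of the 3 HDAC1KD libraries (adjusted p between 0.0582 and 0.135) and with 4 other settings. The receptor gene ptc stood at 292 and 176 CPM in Gcn5KD and at 256, 274 and 304 CPM in HDAC1KD, against 295, 224 and 226 CPM in control, with log2 changes of -0.03 (95% interval -0.45 to 0.39) and 0.15 (95% interval -0.23 to 0.52). For inv the changes were -0.15 (95% interval -1.12 to 0.82) in Gcn5KD and 0.74 (95% interval -0.10 to 1.59) in HDAC1KD. With scaling to genes that were stable between stages in the other set of controls, which moves the median log2 change of all genes by 0.33 in HDAC1KD and by 0.29 in Gcn5KD, inv (1.07) and ptc (0.48) were called higher there and Notum (-0.11) was not called.

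The rises depended on which controls were used. Against the batch1 controls, an alternative chosen after seeing the data, none of the 8 genes rose in Gcn5KD embryos and 4 fell: wg by a log2 change of -0.39, mid -0.61, ptc -1.14 and Notum -0.75, while en stood at -0.48, hh at -0.17 and gsb at -0.17, beside 1820 genes that rose and 1786 that fell of 8330. In HDAC1KD embryos hh (0.87), gsb (0.69) and inv (0.96) rose against batch1 controls and ptc fell (-0.94), while wg stood at 0.15, en at -0.29, mid at -0.20 and Notum at 0.27, beside 1761 genes that rose and 1652 that fell. Knockdown and set are confounded in that alternative, and the effect of each cannot be told apart.

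Stage markers moved in part with these rises. The early transcript nullo averaged 1.69 ± 0.63 CPM (SD, n = 2) in Gcn5KD and 0.337 ± 0.219 CPM (n = 3) in HDAC1KD, against 52.8 ± 7.8 CPM (n = 3) in main controls, and bnk 40.4 ± 7.2 CPM in Gcn5KD and 14.9 ± 9.3 CPM in HDAC1KD, against 194 ± 34 CPM. The 6 detected early transcripts summed to 3247 to 3562 CPM in Gcn5KD and 1388 to 2744 CPM in HDAC1KD, against 5859 to 8569 CPM in main controls. Cleared maternal transcripts summed to 304 to 337 CPM in Gcn5KD and 271 to 309 CPM in HDAC1KD, against 800 to 1401 CPM. Already at stage 2 they summed to 7485 to 7610 CPM in Gcn5KD and 5410 to 6040 CPM in HDAC1KD. Main controls of stage 2 had 8041 to 8814 CPM, without overlap. The part of this earlier difference in the stage 5 sums was not tested. The early and maternal markers of stage 5 separated both knockdowns from the main controls without overlap. They differed in the direction in which batch1 controls differed from main controls. Genes of later embryos summed to 212 to 286 CPM in Gcn5KD, which overlapped the main controls at 188 to 231 CPM. In HDAC1KD they summed to 248 to 312 CPM, without overlap. The part of stage in the rises of gsb, hh, en, mid and wg was not tested.

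In HDAC3KD embryos wg and hh were the 2 of the 8 genes to rise and none fell, beside 14.4% of all genes that rose and 20.4% that fell (34.8% in all). The levels of wg were 62.2, 53.6 and 51.9 CPM in HDAC3KD and 37.7, 38.0 and 46.3 CPM in control (log2 0.46 ± 0.16, edgeR adjusted p = 0.0334), and those of hh 8.50, 7.60 and 7.04 CPM in HDAC3KD and 3.88, 3.48 and 7.71 CPM in control (log2 0.73 ± 0.28, edgeR adjusted p = 0.0487). Leaving out single libraries left 0 to 3 of the 8 genes called: wg and hh were both lost without control library 1 or 2 or without HDAC3KD library 1 or 2, hh alone without HDAC3KD library 3, en was gained without control library 3, and Notum was called lower without HDAC3KD library 1. In a fit of the 2 groups alone hh was lost (edgeR adjusted p = 0.121), and with scaling to the stable genes ptc (0.47) and mid (0.75) were called higher too. Against batch1 controls 6 of the 8 genes fell in HDAC3KD embryos, with log2 changes between -2.21 for gsb and -0.78 for wg, beside 1674 genes that fell and 1768 that rose of 8330. In HDAC3KD embryos nullo averaged 12.02 ± 6.4 CPM against 52.8 ± 7.8 CPM in main controls (SD, n = 3 each), and cleared maternal transcripts summed to 428 to 525 CPM. The 6 detected early transcripts together overlapped, at 5526 to 6179 CPM in HDAC3KD and 5859 to 8569 CPM in main controls. Genes of later embryos summed to 308 to 401 CPM in HDAC3KD and to 188 to 231 CPM in main controls. The part of stage in these values was not tested.

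**Figure D4:**
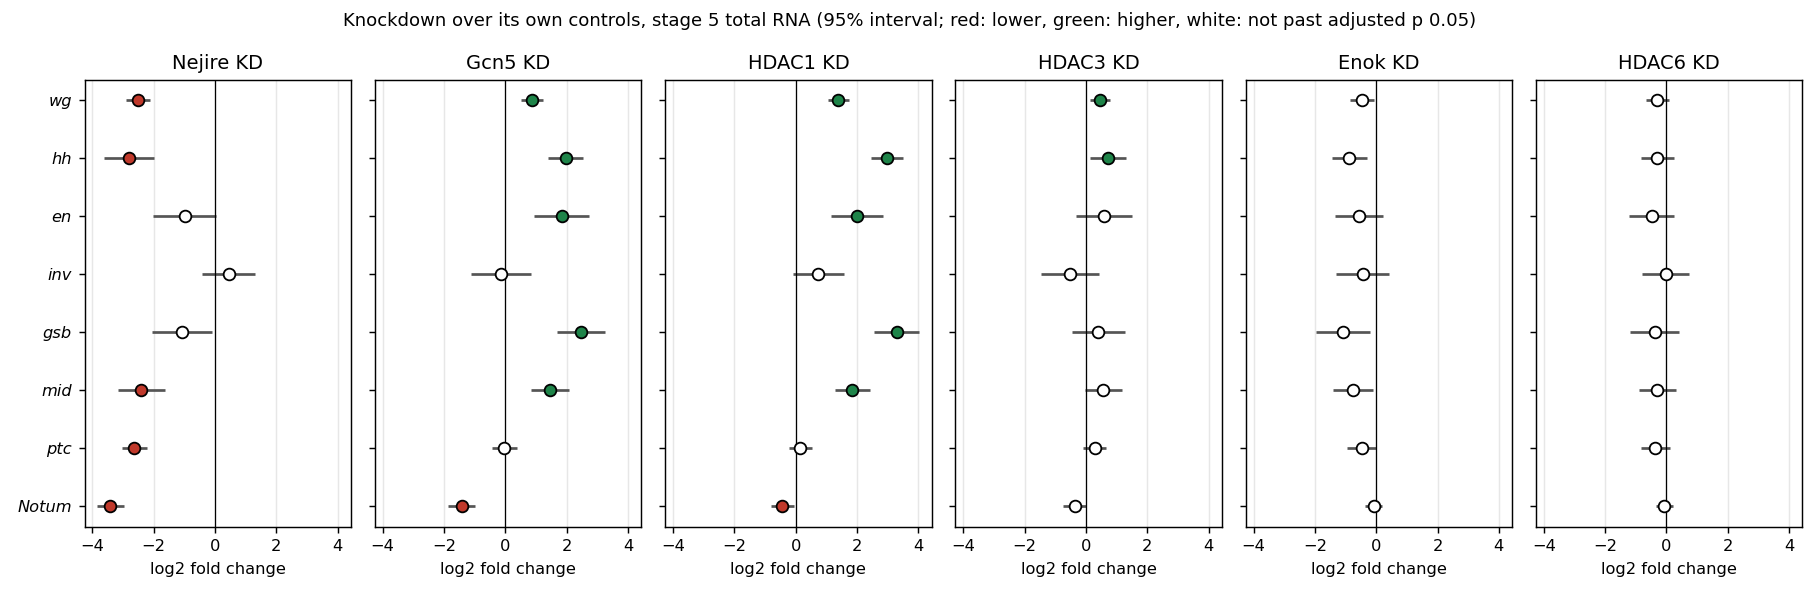
Log2 fold change of the 8 genes in each knockdown over the controls of its own set, stage 5 total RNA (points; bars are 95% intervals; red lower, green higher, white not past an adjusted p of 0.05 in edgeR). NejireKD places wg, hh, mid, ptc and Notum between -3.42 and -2.41, Gcn5KD and HDAC1KD place wg, hh, en, gsb and mid above 0 against the main controls, and no gene passed in EnokKD or HDAC6KD.

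Knockdowns of the main set were also set directly against each other. In NejireKD embryos 7 of the 8 genes, all but inv, were lower than in Gcn5KD embryos, beside 35.8% of all genes that were lower and 28.2% that were higher (64% in all), with log2 differences between -4.76 for hh and -1.99 for Notum. The same 7 were lower in NejireKD than in HDAC1KD, beside 35.6% of all genes lower and 32.9% higher (68.5% in all), with differences between -5.78 for hh (55.0-fold) and -2.79 for ptc. Against HDAC3KD 7 were again lower, beside 29.4% of all genes lower and 29.1% higher (58.6% in all), with differences between -3.53 for hh and -1.48 for gsb. That last count ran between 5 and 8 when single libraries were left out: en and gsb were lost without NejireKD library 1, and inv was called higher without NejireKD library 2 or HDAC3KD library 2. The difference of inv was 0.59 (95% interval -0.32 to 1.499) between NejireKD and Gcn5KD, -0.30 (-1.08 to 0.47) between NejireKD and HDAC1KD and 0.95 (0.07 to 1.83) between NejireKD and HDAC3KD (edgeR adjusted p = 0.0588).

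None of the 8 genes passed in EnokKD or HDAC6KD embryos against the batch1 controls, beside 3.96% and 1.42% of all genes called in either direction. In EnokKD embryos, depleted of an acetyltransferase of the MYST family, wg, hh, gsb and mid had an unadjusted p under 0.05, and all libraries of the knockdown lay below all controls for them. The levels of hh were 10.8 and 10.6 CPM in EnokKD and 22.8, 20.7, 15.9 and 20.8 CPM in control (log2 -0.88, 95% interval -1.45 to -0.31, edgeR adjusted p = 0.0816), and those of gsb 10.99 and 8.10 CPM in EnokKD and 18.7, 17.6, 19.1 and 24.8 CPM in control (log2 -1.07, 95% interval -1.95 to -0.19, edgeR adjusted p = 0.156). DESeq2 called 1 of the 8 genes lower, a fit of these 2 groups alone called 4, and edgeR without a filter on low counts called 5. Calls over all genes rose too in each of these settings, as the last section gives. The 6 detected early transcripts summed to 5447 to 5481 CPM in EnokKD and to 3005 to 5744 CPM in batch1 controls.

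None of the 8 genes had an unadjusted p under 0.05 in HDAC6KD embryos. The gsb levels of the 2 libraries were 6.83 and 22.98 CPM, against 17.6 to 24.8 CPM in batch1 controls, and their en levels 6.05 and 16.4 CPM, against 12.5 to 21.6 CPM. The second library, whose labels disagree on the stage, held the higher levels of wg, hh, en, gsb and mid, and its early transcripts summed to 3077 CPM, beside 6711 CPM in the first. At stage 2 these genes were at or near 0, as given above. Without the second library en (log2 -1.38) and gsb (-1.51) were called lower, a fit in which the 1 library left is assumed to vary like those of the other groups.

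Between the Nejire rescues 1 of the 6 testable genes, Notum, differed, and it was higher with the wild type form. Notum had 106, 121 and 103 CPM with the wild type form and 69.2, 84.0 and 69.2 CPM with the catalytic dead form (log2 0.56 ± 0.09, edgeR adjusted p = 0.0287), without overlap, beside 0.16% of all genes called higher and 0.0983% lower (0.258% in all). The call was lost without any 1 of the 3 wild type libraries or without catalytic dead library 3 (adjusted p between 0.101 and 0.181) and with scaling to the stable genes (edgeR adjusted p = 0.0562), and wg was at -0.42 (95% interval -1.04 to 0.20). The change of ptc was -0.06 (95% interval -0.32 to 0.21), with 349, 313 and 351 CPM in the wild type and 306, 437 and 300 CPM in the catalytic dead rescue. The change of mid was -0.33 (95% interval -0.86 to 0.21) and that of hh -0.39 (-1.37 to 0.59). For inv it was -0.24 (edgeR adjusted p = 0.842). With 10 counts in the wild type and 44 in the catalytic dead rescue for en, and 9 and 27 for gsb, neither passed the filter on low counts. Transcripts of nej averaged 2955 CPM in the wild type and 2871 CPM in the catalytic dead rescue.

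Between the Gcn5 rescues edgeR called 0 of 8140 genes (17 at an unadjusted p under 0.05) and none of the 8. The widest difference was that of gsb, with 0.323, 1.21 and 1.58 CPM in the wild type and 1.35, 0.742 and 6.09 CPM in the catalytic dead rescue (log2 -1.47, 95% interval -3.54 to 0.59). For wg the interval ran between -0.91 and 0.42, for Notum between -0.27 and 0.86 and for ptc between -0.80 and 0.99. For en the interval ran between -1.21 and 0.29, for inv between -1.15 and 0.24, for hh between -1.89 and 0.59 and for mid between -1.28 and 0.33.

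Levels in the rescues can be set beside the other groups only as a description, since no control library belongs to their sets. The line codes of the Nejire rescues also differ from those of NejireKD, so cross and rescue cannot be told apart there. In the Nejire rescues ptc averaged 338 ± 21 CPM with the wild type and 348 ± 78 CPM with the catalytic dead form, beside 39.3 ± 9.2 CPM in NejireKD and 248 ± 41 CPM in main controls (SD, n = 3 each). Notum averaged 110 ± 9.4 and 74.1 ± 8.5 CPM in the 2 rescues, beside 10.3 ± 3.3 CPM in NejireKD and 106 ± 6.3 CPM in main controls. The ligand gene wg stood at 6.60 ± 1.19 and 8.74 ± 3.94 CPM in the rescues, beside 6.83 ± 2.2 CPM in NejireKD and 40.7 ± 4.9 CPM in main controls, and hh at 1.09 ± 0.31 and 1.40 ± 0.76 CPM, beside 0.617 ± 0.238 and 5.02 ± 2.34 CPM. Ranges of ptc and Notum in the rescues thus lay above all NejireKD libraries, and those of wg lay below all main controls. The Nejire rescues held 208 ± 22 CPM of nullo with the wild type and 182 ± 34.5 CPM with the catalytic dead form, the highest group means, and cleared maternal transcripts of 1803 to 2192 CPM. The part of stage in these levels was not tested.

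Over the 12 stage 5 groups of total RNA the 8 genes fell into an order of variability. The highest group mean exceeded the lowest 119-fold for gsb, 58.8-fold for hh, 57.3-fold for en, 21.1-fold for mid, 17.6-fold for Notum, 16.1-fold for wg, 13.6-fold for ptc and 4.56-fold for inv. The lowest means of gsb, hh and en rest on 9, 15 and 10 counts over 3 libraries, so their ratios and order are imprecise. For wg, hh, gsb and inv the highest group was HDAC1KD, for en, mid and ptc the batch1 controls, and for Notum the Gcn5 wild type rescue. NejireKD was lowest for hh, ptc, mid and Notum, and the Nejire wild type rescue was lowest for wg, en, inv and gsb. Most neighbours in these orders overlapped in range: of 11 pairs of neighbouring groups, 4 were separate for wg, 3 each for en, hh and mid, 2 each for gsb and Notum, and 1 each for inv and ptc. For ptc the only gap lay between NejireKD, at 39.3 ± 9.2 CPM, and Gcn5KD, at 234 ± 82 CPM.

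Across these 12 group means (log2 of CPM + 0.1), Pearson's r between pairs of wg, en, hh, gsb and mid ran between 0.863 (gsb and mid) and 0.976 (wg and hh). Notum followed ptc (r = 0.831) more than it followed wg, en, hh, gsb and mid (r between -0.183 with gsb and 0.291 with mid). The values describe group means that share set, depth and stage, and carry no test. Among protein-coding genes of at least 5 CPM, the profiles most like that of wg were those of Antp (r = 0.995) and PsGEF (0.992), of hh NSD (0.989) and Rrp45 (0.986), and of en Lpin (0.971) and Toll-6 (0.963). The most alike to ptc were sog (0.988) and salm (0.987), to mid pnt (0.985) and toy (0.985), and to gsb PolE1 (0.979) and Klp64D (0.975). Notum was most like Kr (0.954) and siz (0.944), and inv was most like blp (0.962) and didum (0.944).

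Genes that feed into or carry out these signals were read from 3 lists. Of 13 tested upstream regulators, mostly pair-rule factors, 11 fell in NejireKD embryos and 1, ftz-f1, rose (log2 0.43, named after its value was seen), with a median log2 change of -2.25 beside 0.01 over all genes, of which 21.9% fell and 16.1% rose. Among them opa, a pair-rule zinc finger factor, fell by a log2 change of -2.89 ± 0.22, prd -2.53 ± 0.16, odd -2.31 ± 0.12 and ftz -2.25 ± 0.17. In nuclear RNA 10 of 14 fell, beside 9.91% of all genes, opa by -5.77 ± 1.07, odd by -4.50 ± 0.92, prd by -4.49 ± 0.96 and ftz by -3.72 ± 0.91. In Gcn5KD embryos 3 of 13 rose and 3 fell, beside 27.4% of all genes that rose and 24.3% that fell. In HDAC1KD embryos 5 of 13 rose and 1 fell, beside 27.5% and 28.5% of all genes. Of the genes named above prd rose in both (0.90 ± 0.16 and 1.30 ± 0.14), while ftz, odd and opa had changes between -0.30 and 0.42 that did not pass.

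Of 11 tested genes of the Hedgehog pathway 5 fell in NejireKD embryos and none rose, beside 21.9% of all genes that fell and 16.1% that rose. The transcription factor gene ci averaged 132 CPM in NejireKD and 580 CPM in control (log2 -2.13 ± 0.12), the glypican gene dally fell by -1.84 ± 0.40, the co-receptor gene ihog by -1.14 ± 0.15, the signal transducer gene smo by -0.90 ± 0.09 and rasp, which encodes the acyltransferase for the Hedgehog ligand, by -1.08. In nuclear RNA ci (-3.82 ± 0.99) and dally (-3.83 ± 0.85) fell, while ihog stood at -1.73 and smo at -1.60 without passing. In Gcn5KD embryos 5 rose and 3 fell, beside 27.4% of all genes that rose and 24.3% that fell, and in HDAC1KD embryos 5 rose and 4 fell, beside 27.5% and 28.5% of all genes.

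Of 20 tested genes of the Wnt pathway 5 fell and 2 rose in NejireKD embryos, beside 21.9% of all genes that fell and 16.1% that rose, so the share that fell was near that of all genes. The receptor gene fz2 fell by -1.93 ± 0.21, the transcription factor gene pan by -1.49 ± 0.13, the feedback inhibitor gene nkd by -2.26 ± 0.20 and WntD by -1.79 ± 0.25, and the co-receptor gene arr fell by -0.38. The risers were dsh (0.35) and gish (0.48), and these, with arr and rasp, were named after their values were seen. The median log2 change of the 20 genes was -0.11. In nuclear RNA 4 fell, beside 9.91% of all genes: WntD by -4.23 ± 0.87, fz2 by -4.04 ± 0.94, nkd by -4.04 ± 0.98 and pan by -2.96 ± 0.94. In Gcn5KD embryos 4 rose and 10 fell, beside 27.4% of all genes that rose and 24.3% that fell, and in HDAC1KD embryos 5 rose and 10 fell, beside 27.5% and 28.5% of all genes.

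The genomic partners of the 8 genes had few counts at stage 5 in the main set. There gsb-n, which lies 9633 bases from gsb, H15, 45046 bases from mid, Wnt6, 17449 bases from wg, and Wnt10 did not pass the filter on low counts, with at most 6 counts each over the 3 control libraries. Wnt10 had 27 counts in the 2 Gcn5KD libraries against 2 in the controls, a difference that was not tested. Wnt4, 29988 bases from wg, rose in Gcn5KD embryos, with 53 counts in 2 libraries against 7 in the 3 controls (log2 2.92 ± 0.73, edgeR adjusted p = 0.0031). It was not called in NejireKD embryos (-0.32, 8 counts in NejireKD against 7 in control). In fits of control libraries alone none of the partners passed the filter. Wnt4 thus entered the test only through knockdown groups with more counts, and its call in Gcn5KD cannot be read apart from that selection.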

How the data were processed

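Gene counts of 56 total RNA and 6 nuclear RNA libraries were used as the authors deposited them, as raw counts per gene; the submitters' processing notes name bcl2fastq 2.20.0.422 and build dm6. Which aligner, counter, annotation or strand setting was used is not given in the sources used here. Of 17753 fly genes 17626 had a symbol. No library pair was identical. Symbols, loci and exon lengths came from an Ensembl annotation on dm6.

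Tests were run in R 4.3.3 with edgeR 4.0.16 (factors by TMM, filterByExpr with a minimum count of 10 and a total of 15, quasi-likelihood F test, Benjamini-Hochberg over all genes tested, threshold 0.05). The groups of a set at 1 stage shared a fit. Each ± after a log2 change is its standard error, and intervals are 95%. Nuclear libraries were scaled to the summed counts of 92 ERCC transcripts. Counts of 0 were bounded by 3 counts over the group, which covers counting error only. All 8 genes were read out in every comparison, though not every value is printed. Of each pathway list the 4 genes with the lowest adjusted p in NejireKD at stage 5 were named, and for likeness the 2 genes of highest r. The members and lists were chosen with earlier results of these data known. The steps were tested on simulated data. Alternatives covered scaling, filtering, DESeq2 1.42.0, replicate blocks, pairs of groups and left-out libraries. Batch1 controls for main set knockdowns, their comparison with main controls and the en to inv ratio were added after seeing the data. No sequences were used here.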

Additional observations from a re-analysis of the deposited data

How the results depend on the processing

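Over the settings other than a left-out library, 116 of 128 counts of called genes among the 8 stayed within 1.5 times the reported one, and for 682 of 726 log2 changes no call was gained, lost or turned round; with a library left out, the same held for 113 of 124 and 677 of 708. Changes that were not called could turn in sign without being counted. In HDAC3KD at stage 5 the count was 2, and it became 4 with scaling to genes stable between stages in the other controls (stable genes), 0 with a replicate block (adjusted p = 0.0509 for wg and 0.0772 for hh), 1 in a fit of the 2 groups alone and 6, all lower, against batch1 controls. In HDAC3KD at stage 2 it was 0, and 1 with no filter on low counts or with the 2 groups alone. In EnokKD at stage 5 it was 0, and 5 with no filter, 1 in DESeq2 and 4 with the 2 groups alone. Between the Nejire rescues it was 1, and 0 with scaling to stable genes, 2 with no filter and 0 with a replicate block (adjusted p = 0.0587 for Notum). Against batch1 controls log2 changes turned round in Gcn5KD for wg (-0.39), en (-0.48), hh (-0.17), gsb (-0.17) and mid (-0.61). They turned in HDAC1KD for en (-0.29), ptc (-0.94), mid (-0.20) and Notum (0.27), and in HDAC3KD for wg (-0.78), en (-1.70), hh (-1.38), gsb (-2.21), ptc (-0.80) and mid (-1.46). There inv in Gcn5KD (0.03) and Notum in HDAC3KD (0.35) turned in sign too, called in neither setting. The cause was not tested. With single libraries left out the count ran between 5 and 7 in NejireKD, 5 and 6 in HDAC1KD, 0 and 3 in HDAC3KD, 5 and 8 in NejireKD against HDAC3KD, 0 and 2 in HDAC6KD, 7 and 8 in nuclear RNA and 0 and 2 between the Nejire rescues. Replicate numbers did not pair the samples in any comparison, and the replicate block also ended the call of Notum in HDAC1KD (adjusted p = 0.0639). Over all genes the number called in nuclear RNA was 1248, and it was 716 with the block and 5626 with TMM on fly genes. In EnokKD at stage 5 the number of genes called was 323, and it was 912 with no filter, 600 in DESeq2, 47 with the block, 746 with the 2 groups alone and 170 with the controls named for it. In HDAC6KD at stage 5 it was 116, and 549, 280, 15, 76 and 76 under the same settings. In NejireKD at stage 5 it was 3124, and 6027 against batch1 controls. Between the Nejire rescues it was 21, and 478 with no filter, 88 in DESeq2 and 9 with the block. In NejireKD at stage 2 it was 700, and 342 with the 2 groups alone, and with no filter it was 583 in place of 358 in EnokKD and 370 in place of 212 in HDAC6KD at stage 2. Scaling to stable genes changed the split of higher to lower calls over all genes. It was 935 to 2039 (reported: 1324 to 1800) in NejireKD, 3598 to 1372 (2259 to 2002) in Gcn5KD, 3689 to 1481 (2264 to 2346) in HDAC1KD and 2133 to 1209 (1189 to 1678) in HDAC3KD at stage 5. It was 1612 to 4341 (2320 to 2948) in NejireKD against Gcn5KD, 1805 to 4340 (2711 to 2933) against HDAC1KD and 1736 to 3496 (2400 to 2424) against HDAC3KD. It was 2831 to 1171 (1745 to 1826) in batch1 against main controls, 10 to 14 (13 to 8) between the Nejire rescues, and 1659 to 866 (1331 to 1220) in Gcn5KD and 721 to 380 (603 to 498) in HDAC1KD at stage 2. With single libraries left out, calls over all genes ran between 548 and 7272 in nuclear RNA, 29 and 522 in EnokKD and 46 and 344 in HDAC6KD at stage 5, and 7 and 145 between the Nejire rescues. At stage 2 they ran between 585 and 946 in HDAC1KD (reported: 1101), 202 and 315 in EnokKD and 57 and 174 in HDAC6KD. Levels of hh, en, gsb and mid in NejireKD and the Nejire rescues rest on few counts, 9 to 112 per group at stage 5, which limits their precision. The same holds for inv, with 39 counts in the main controls, 78 in NejireKD and 20 in EnokKD. In the Nejire rescues inv had 29 counts with the wild type and 34 with the catalytic dead form. Its uncalled changes and the en to inv ratios of total RNA are imprecise for that reason.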
